A study of Mus musculus with 11 samples.

Results

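The genes described here carry peptides to MHC class I molecules: the peptide transporter subunits Tap1 and Tap2, tapasin (Tapbp), the immunoproteasome catalytic subunits Psmb8, Psmb9 and Psmb10, the PA28 proteasome activator subunits Psme1 and Psme2, the aminopeptidase Erap1 and the transactivator Nlrc5. These 10 genes, of 35814 gene symbols in the table, were chosen by symbol and role with their counts in these 11 libraries already known, so their levels and fold changes are given as a description, and no test of them is offered as support. Each library was bulk RNA-seq of CD4+ T cells sorted from the kidneys of 1 mouse on day 2 after ischemia-reperfusion injury, made by clamping both renal pedicles for 45 min in male C57BL/6 mice 8 to 12 weeks old. The 3 CD4cre libraries, whose genotype is labelled WT, came from mice carrying Cre recombinase under the CD4 promoter. The 5 libraries labelled CD4IKK1 came from mice with that Cre and a floxed Chuk gene (IKK1 knockout), and the 3 labelled CD4NIK from mice with that Cre and a floxed Map3k14 gene (NIK knockout). IKK1 and NIK are kinases of the non-canonical NFκB pathway. All groups shared the Cre and the injury, and a CD4 promoter also drives Cre in cells that later become CD8+ T cells.

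In most cells the proteasome cuts proteins with the constitutive catalytic subunits Psmb5, Psmb6 and Psmb7. Interferon-γ and lymphoid identity bring in Psmb8, Psmb9 and Psmb10, which replace them one for one and give peptides with ends that suit class I binding, while the PA28 ring of Psme1 and Psme2 opens the barrel. TAP pumps the peptides into the endoplasmic reticulum, Erap1 trims them there, tapasin bridges TAP to the empty class I molecule and edits its cargo, and Nlrc5 is the class I counterpart of CIITA at the promoters of many of these genes.

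Tap1, Tap2, Psmb8 and Psmb9 sit side by side in the MHC class II region of chromosome 17. On GRCm39 (GENCODE M39) Tap1 lay at chr17:34405996-34416199 and Psmb9 at chr17:34400960-34406738 on the opposite strand, so that their exons overlapped by 743 bases. Psmb8 lay at chr17:34416690-34420428, Tap2 at chr17:34422501-34435829 and Tapbp at chr17:34134873-34148267. The PA28 genes Psme1 (chr14:55815190-55822034) and Psme2 (chr14:55824895-55829173) were neighbours on chromosome 14, Erap1 was at chr13:74787687-74841320, and Psmb10 (chr8:106662362-106665077) and Nlrc5 (chr8:95160984-95253900) were both on chromosome 8. RefSeq promoter windows (250 bases before the annotated start, GRCm38.p6) were matched for 8 of the 10 genes, all but Tap2 and Nlrc5. Shown first is the plus strand of the 225 bases between the starts of Psmb9 and Tap1, because the pair is transcribed outward from it. Psmb8 follows because it was the only one of these 8 with a match to any motif searched, and Psmb10 because its levels differed least between the genotypes. Capitals mark the match, and both of the single-gene windows are printed on the strand of the gene, Psmb10 on the minus strand.
Psmb9 to Tap1, chr17:34187331-34187555: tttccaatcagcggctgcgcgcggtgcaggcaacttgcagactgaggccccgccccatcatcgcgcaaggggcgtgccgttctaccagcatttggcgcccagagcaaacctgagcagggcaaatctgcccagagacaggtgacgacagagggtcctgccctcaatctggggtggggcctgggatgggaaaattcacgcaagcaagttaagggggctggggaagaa
Psmb8, chr17:34197945-34198194: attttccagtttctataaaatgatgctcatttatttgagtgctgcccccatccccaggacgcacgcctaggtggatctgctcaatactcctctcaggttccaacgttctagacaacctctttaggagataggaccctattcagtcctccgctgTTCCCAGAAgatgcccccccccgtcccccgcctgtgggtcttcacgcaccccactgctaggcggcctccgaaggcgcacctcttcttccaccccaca
Psmb10, chr8:105938393-105938642: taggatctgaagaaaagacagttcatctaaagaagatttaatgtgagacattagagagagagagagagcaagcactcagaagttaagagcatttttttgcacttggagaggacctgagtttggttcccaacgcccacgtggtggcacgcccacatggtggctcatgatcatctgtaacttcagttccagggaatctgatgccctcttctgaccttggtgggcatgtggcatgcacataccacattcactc

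Searched on both strands, the interferon-γ activated site TTCNNNGAA occurred once in these windows, 97 to 89 bases before the start of Psmb8, where 7.02% of 32851 promoter windows held it. The interferon-stimulated response element GAAANNGAAA, held by 2.98% of all windows, and the NFκB consensus, held by 9.55%, matched none of the 8 members with a window. A match is only a description of these letters, and its absence says only that they are not in this window.

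Transport and loading genes were highest in CD4NIK and, for Tap2 and Tapbp, lowest in CD4IKK1. Levels are in CPM, counts relative to the library total after TMM scaling, and libraries are given in the order of their replicate numbers. Tap1, one chain of the TAP transporter, stood at 88.9, 12.6 and 32.2 CPM in CD4cre, at 0.775, 7.28, 9.56, 14.7 and 19.1 CPM in the libraries labelled CD4IKK1, and at 199, 231 and 192 CPM in those labelled CD4NIK. Tap2, the partner chain, stood at 93.7, 69.2 and 55.3 CPM in CD4cre, at 3.04, 5.39, 24.5, 14.1 and 16.1 CPM in CD4IKK1, and at 373, 434 and 379 CPM in CD4NIK. The lowest Tap2 level in CD4cre was above every CD4IKK1 library, whereas Tap1 overlapped between these groups because CD4cre replicate 2 fell among the CD4IKK1 libraries. Both genes were higher in each CD4NIK library than in any other. Tapbp, the tapasin gene, stood at 40.6, 29.2 and 24.1 CPM in CD4cre, at 18.0, 7.96, 20.7, 11.5 and 19.96 CPM in CD4IKK1, and at 218, 272 and 268 CPM in CD4NIK. Its 3 groups did not overlap.

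Against CD4cre, the CD4NIK values of these genes differed by log2 fold changes of 2.21 (SE 0.58) for Tap1, 2.43 (SE 0.23) for Tap2 and 3.00 (SE 0.24) for Tapbp. Tapbp had the largest difference of the 10 members in this comparison. For CD4IKK1 against CD4cre the same genes gave −2.11 (SE 0.86), −2.53 (SE 0.57) and −1.01 (SE 0.34). Tap1 depended on CD4cre replicate 1, its highest CD4cre library, without which it gave −1.11 in CD4IKK1 against CD4cre and 3.19 in CD4NIK against CD4cre. Set against CD4NIK, CD4IKK1 gave log2 fold changes of −4.33 (SE 0.82) for Tap1, −4.97 (SE 0.56) for Tap2 and −4.02 (SE 0.30) for Tapbp. Tap2 had the largest of the members' differences there, and Tap1, with the widest spread inside CD4cre, had the largest errors of these genes.

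**Figure D1:**
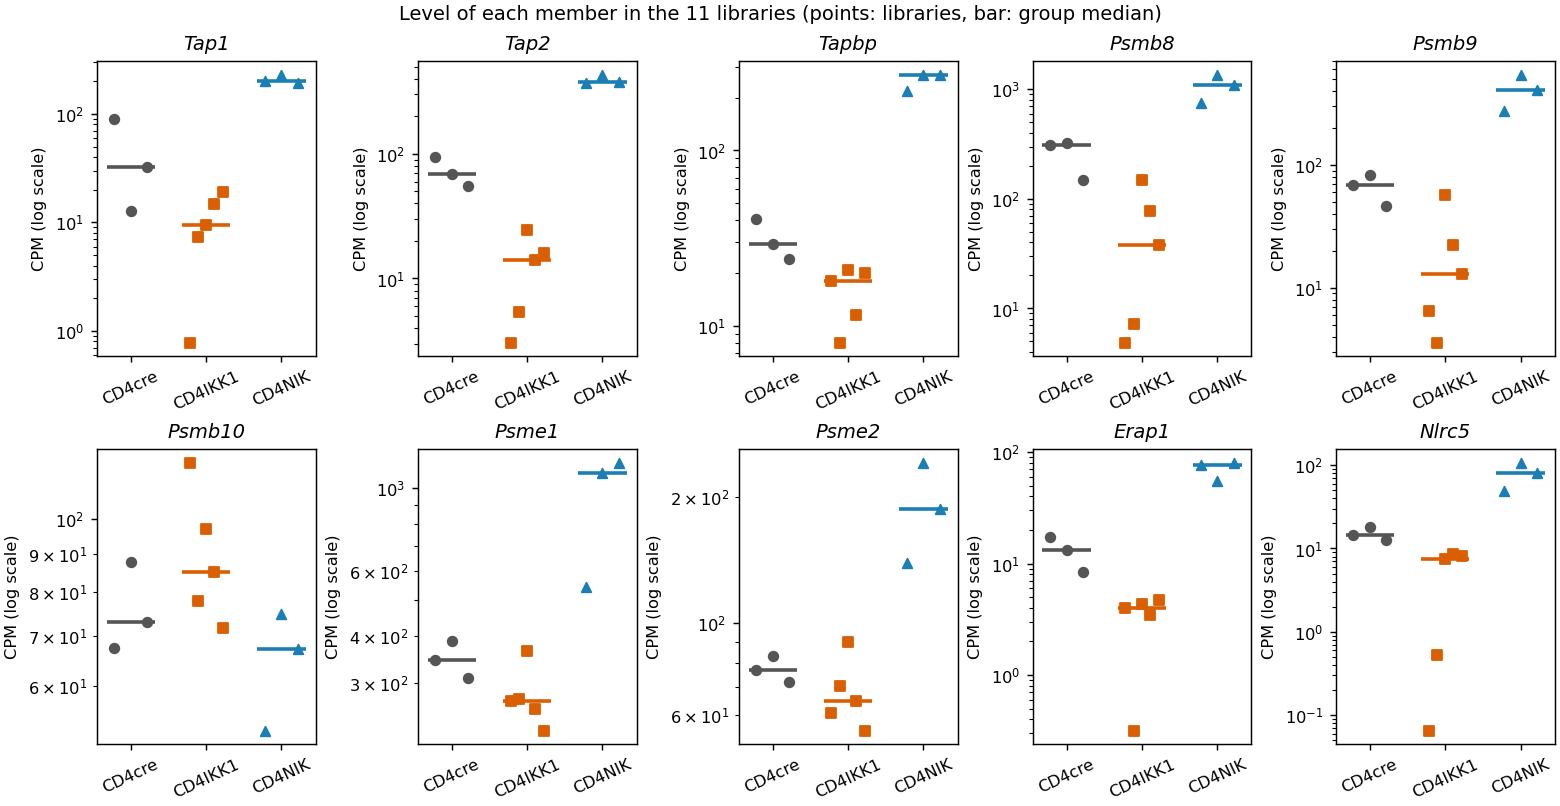
CPM (log axes) of each of the 10 members, 1 panel per gene with its own range; points are libraries in replicate order from left to right and bars are group medians. The 3 CD4NIK libraries lie above all others for every gene but Psmb10, whose 3 groups overlap.

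The 3 inducible catalytic subunits did not move as a set. Psmb8, the chymotrypsin-like subunit also called LMP7, stood at 312, 325 and 149 CPM in CD4cre, at 4.85, 7.28, 148, 77.2 and 37.9 CPM in CD4IKK1, and at 750, 1361 and 1095 CPM in CD4NIK. Psmb9 (LMP2) stood at 68.8, 83.3 and 46.3 CPM in CD4cre, at 6.53, 3.56, 56.5, 22.4 and 12.9 CPM in CD4IKK1, and at 277, 545 and 408 CPM in CD4NIK. In both genes CD4IKK1 replicates 1 and 2 were lowest and replicate 3 was highest of that group, next to the lowest CD4cre library. Psmb10 (MECL-1), which takes the trypsin-like position, stood at 67.4, 87.9 and 73.1 CPM in CD4cre, at 119, 77.8, 96.9, 85.0 and 71.7 CPM in CD4IKK1, and at 52.4, 74.7 and 67.3 CPM in CD4NIK. The 3 groups overlapped for Psmb10, and its highest level was in CD4IKK1 replicate 1, the library with the lowest Tap1, Tap2, Psmb8 and Nlrc5.

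Psmb8 differed by a log2 fold change of 2.01 (SE 0.34) and Psmb9 by 2.61 (SE 0.31) between CD4NIK and CD4cre, where Psmb10 gave −0.25 (SE 0.22). The CD4IKK1 values against CD4cre were −2.25 (SE 1.09) for Psmb8, −1.70 (SE 0.80) for Psmb9 and 0.24 (SE 0.18) for Psmb10. Between CD4IKK1 and CD4NIK the values were −4.28 (SE 0.97), −4.33 (SE 0.78) and 0.47 (SE 0.20). Whether reads in the exons that Psmb9 shares with Tap1 were told apart is not known, because the counting is not stated to use strand. The same holds for Tapbp, which shares 1130 exon bases with Gm19412 on the other strand. It also holds for Psmb8 and Tap2, which overlap Gm20496, and for Erap1, which overlaps Cast. Tapbp further shares 923 exon bases with Zbtb22 on the same strand, where strand could not separate the reads.

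The PA28 genes had smaller differences than the TAP genes and resembled each other. Psme1 (PA28α) stood at 346, 389 and 309 CPM in CD4cre, at 268, 272, 366, 256 and 223 CPM in CD4IKK1, and at 541, 1097 and 1171 CPM in CD4NIK. Psme2 (PA28β) stood at 76.8, 83.2 and 72.0 CPM in CD4cre, at 60.7, 70.2, 89.7, 64.8 and 54.9 CPM in CD4IKK1, and at 139, 242 and 187 CPM in CD4NIK. CD4cre and CD4IKK1 overlapped for both, CD4IKK1 replicate 3 being the highest of its group each time, and CD4NIK replicate 1 was the lowest of the CD4NIK libraries. Their log2 fold changes were 1.41 (SE 0.29) and 1.27 (SE 0.22) for CD4NIK against CD4cre, −0.33 (SE 0.15) and −0.19 (SE 0.17) for CD4IKK1 against CD4cre, and −1.76 (SE 0.22) and −1.48 (SE 0.19) for CD4IKK1 against CD4NIK. With a T cell marker score as a covariate, described below, Psme1 turned to −0.35 in CD4NIK against CD4cre. Psme2 counts are uncertain, since Psme2b is a near-identical copy with 2 to 375 counts per library, and exons of Psme1 overlap Emc9 while those of Psme2 overlap Rnf31.

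Erap1, the trimming enzyme, and Nlrc5, the transactivator, were lowest in CD4IKK1 and highest in CD4NIK. Erap1 stood at 17.1, 13.2 and 8.37 CPM in CD4cre, at 4.01, 0.314, 4.30, 3.48 and 4.69 CPM in CD4IKK1, and at 75.9, 54.5 and 80.5 CPM in CD4NIK. Nlrc5 stood at 14.4, 18.0 and 12.6 CPM in CD4cre, at 0.0646, 0.523, 7.46, 8.50 and 8.06 CPM in CD4IKK1, and at 49.4, 107 and 80.1 CPM in CD4NIK. Neither gene overlapped between any of the 3 groups. The lowest Nlrc5 value was a single count, in CD4IKK1 replicate 1, and the lowest Erap1 value was 6 counts, in replicate 2. Log2 fold changes for Erap1 were 2.44 (SE 0.32) in CD4NIK against CD4cre, −1.94 (SE 0.66) in CD4IKK1 against CD4cre and −4.39 (SE 0.57) in CD4IKK1 against CD4NIK. For Nlrc5 they were 2.38 (SE 0.32), −1.60 (SE 1.03) and −4.00 (SE 0.96) in the same order. With the Pan T score, the mean log2 CPM of 15 T cell markers, as a covariate, Nlrc5 turned to 0.99 in CD4IKK1 against CD4cre and 1.22 in CD4IKK1 against CD4NIK.

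**Figure D2:**
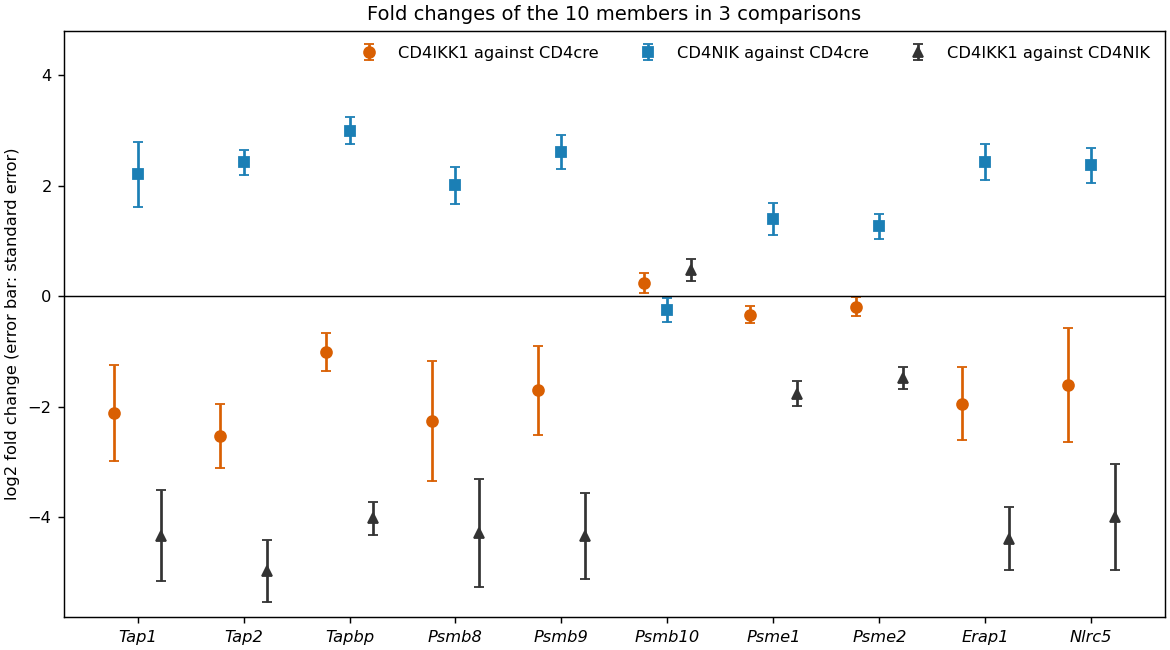
Log2 fold change (vertical axis) of each member with its standard error (bars) in the 3 comparisons, from the edgeR fits. The values run from −4.97 for Tap2 in CD4IKK1 against CD4NIK to 3.00 for Tapbp in CD4NIK against CD4cre, and Psmb10 stays within 0.47 of 0.

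Counted over the members, 9 of 10 passed an edgeR false discovery rate (FDR) of 0.05 with more than a 2-fold change in CD4NIK against CD4cre, all 9 higher, where 10.4% of 15209 genes tested were called higher and 6.99% lower. With all 11 libraries in that fit 5 of them passed, without Tap1, Psmb8, Psmb9 and Nlrc5, and leaving out 1 library gave 7 to 9, Tap1 being lost without CD4cre replicate 3, CD4NIK replicate 2 or CD4NIK replicate 3, and Psme1 without any of these or CD4cre replicate 2. The calls over all genes moved as well, from 1063 lower and 1586 higher to 60 lower and 614 higher without CD4NIK replicate 3, 66 and 852 without CD4NIK replicate 2, 79 and 780 without CD4cre replicate 3, and 117 and 884 without CD4cre replicate 2. The 9 genes, all members but Psmb10, were lower in CD4IKK1 against CD4NIK, where 18.5% of 16546 genes were called lower and 14.8% higher. In CD4IKK1 against CD4cre 0 of 10 passed, and 0% of 15653 genes did, with 1394 genes lower and 1198 higher at an unadjusted p under 0.05 and 542 called by DESeq2. At an unadjusted edgeR p under 0.05, Tap1, Tap2, Tapbp, Psme1 and Erap1 were lower there, with 8.91% of genes lower by that rule. Psme1 stood at the limit (edgeR p 0.049999, FDR 0.302). DESeq2 called Tap2 and Erap1 lower there, against 4.46% of the 11256 genes to which it gave an adjusted p. In TMM-scaled CPM the groups did not overlap, with CD4IKK1 below CD4cre, for Tap2, Tapbp, Psmb8, Erap1 and Nlrc5 and for 8.44% of genes. For CD4NIK above CD4cre this held for 9 members and 22.9% of genes, and for CD4IKK1 below CD4NIK for 9 members and 24.4%. The Psmb8 gap was narrow, with 147.8 CPM in CD4IKK1 replicate 3 and 148.9 CPM in CD4cre replicate 3. With RLE factors, another scaling, these libraries overlapped, at 145.8 and 145.4 CPM. Since the members were chosen with these values known, nothing is read from the counts. The median member log2 fold change was 2.29, −1.65 and −4.15 for CD4NIK against CD4cre, CD4IKK1 against CD4cre and CD4IKK1 against CD4NIK, beside −0.02, 0.02 and 0.06 over all genes tested. The first 2 comparisons share their CD4cre libraries, and the last shares libraries with each of them.

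The libraries differed in T cell RNA in the same order as in most members. Total counts were 15751632 to 25737046 per library. The 15 Pan T markers, among them the T cell receptor and CD3 genes, summed to 1602 to 3058 CPM in CD4cre, 15.4 to 1369 CPM in CD4IKK1 and 8168 to 12335 CPM in CD4NIK, all 15 being in the table, and Cd4 ran from 51.1 to 78.4, 2.07 to 68.9 and 316 to 382 CPM. CD4IKK1 replicates 1 and 2 held 41 and 868 counts of the T cell receptor constant genes, where the other libraries held 5277 to 111648. Other markers moved too: the 9 leukocyte markers used summed to 1224 to 2105, 58.2 to 1276 and 7772 to 11307 CPM in the same order of groups, the 15 myeloid markers summed to 553 to 2366, 125 to 313 and 1092 to 1455 CPM, the 5 B cell markers to 67.5 to 140, 4.14 to 25.6 and 193 to 663 CPM, the 6 NK and CD8 markers to 97.0 to 183, 0.388 to 164 and 913 to 1304 CPM (Ncr1 at 0 in 9 libraries), and the 10 neuronal markers, which a sorted T cell should lack, to 2797 to 3394, 3566 to 4161 and 986 to 1975 CPM. The 5 erythroid markers summed to 2078 to 2680, 532 to 1612 and 1177 to 8183 CPM, the 10 kidney tubule markers to 18.7 to 80.1, 5.04 to 11.4 and 14.3 to 111 CPM, the 7 oligodendrocyte and astrocyte markers to 459 to 605, 463 to 673 and 149 to 385 CPM, and the 5 endothelial markers to 16.5 to 22.4, 8.43 to 13.4 and 24.3 to 52.2 CPM. In bulk RNA, fewer cells of a type and less RNA per cell cannot be told apart, and the part of these markers in the members' values was not tested beyond the covariate fit below. The targeted genes were not lower in the libraries labelled as their knockouts beyond the spread between libraries. Counts are per gene, so loss of only a part of either gene was not examined. Chuk, encoding IKK1, had 258 to 588 counts in CD4IKK1 and 325 to 683 in CD4cre (log2 fold change −0.11, SE 0.31), and Map3k14, encoding NIK, had 232 to 626 in CD4NIK and 294 to 506 in CD4cre (0.30, SE 0.36; −1.68 and not past the threshold with the Pan T covariate described below). In the libraries labelled CD4IKK1, Map3k14 had 29 to 186 counts, below every other library, with log2 fold changes of −1.58 (SE 0.46, edgeR FDR 0.148) against CD4cre and −1.91 (SE 0.44, FDR 0.0042) against CD4NIK.

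**Figure D3:**
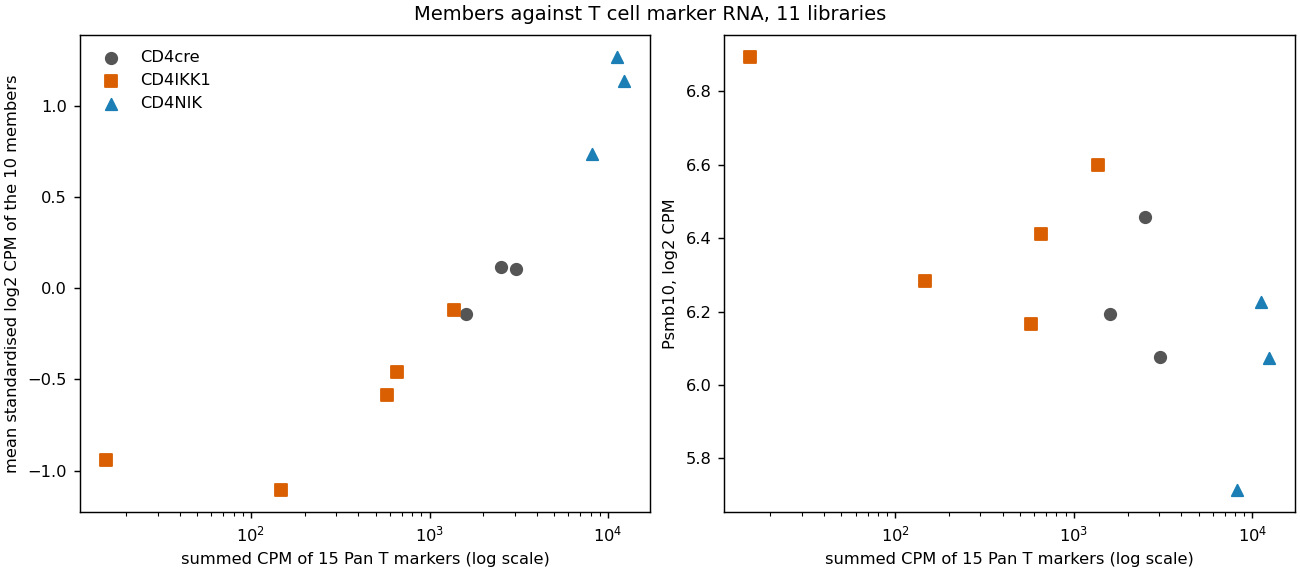
Left, the mean standardised log2 CPM of the 10 members in each library, and right, log2 CPM of Psmb10, both against the summed CPM of the 15 Pan T markers (log axis). CD4IKK1 replicates 1 and 2 lie at the left end with member means of −0.94 and −1.11, the CD4NIK libraries at the right end with 0.74 to 1.27, and Psmb10 is highest in the library with the least marker RNA.

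With the Pan T score (mean log2 CPM of those 15 markers) as a covariate, which itself differed between the genotypes, no gene of 15209 passed in CD4NIK against CD4cre, members included, with 354 lower and 536 higher at an unadjusted p under 0.05 and a median of 0.69 over the members and 0.22 over all genes. In CD4IKK1 against CD4NIK 726 of 16546 genes and 3 members passed, with medians of 0.19 and −1.39. In CD4IKK1 against CD4cre no gene of 15653 passed by edgeR, with 516 lower and 637 higher at an unadjusted p under 0.05, and the member median went from −1.65 to −0.35 beside 0.04 over all genes. The 3 members that passed in CD4IKK1 against CD4NIK were Tap2 (−2.69), Tapbp (−3.74) and Erap1 (−3.97). Without CD4IKK1 replicates 1 and 2, the pair poorest in T cell receptor counts, the member median against CD4cre was −1.01, and Tap2 alone of the members passed, still lower, among 36 genes. Against CD4NIK all 9 still passed without that pair, at a median of −3.67.

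The constitutive catalytic subunits did not share the direction of Psmb8 and Psmb9. Psmb5, whose place Psmb8 takes, was 0.88 higher on the log2 scale in CD4IKK1 than in CD4NIK (SE 0.13, edgeR FDR 0.00028) and differed by −0.63 in CD4NIK against CD4cre (SE 0.17, FDR 0.037). Psmb6, the counterpart of Psmb9, was 0.55 higher in CD4IKK1 than in CD4NIK (SE 0.12, FDR 0.0032), and Psmb7, the counterpart of Psmb10, gave 0.26 there (SE 0.12, FDR 0.0943). None of the 3 was past 2-fold, and in CD4IKK1 against CD4cre they gave 0.27, 0.22 and 0.11, with an edgeR FDR of at least 0.251.

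Scaled by transcript length, the share of each inducible subunit in its pair can be given. Psmb8 made up 40.9%, 38.2% and 21.98% of Psmb8 plus Psmb5 in CD4cre, 0.683%, 1.18%, 19.2%, 12.03% and 6.79% in CD4IKK1, and 71.8%, 79.2% and 76.6% in CD4NIK. Psmb9 made up 8.02%, 8.77% and 5.21% of Psmb9 plus Psmb6 in CD4cre, 0.577%, 0.372%, 5.26%, 2.53% and 1.44% in CD4IKK1, and 29.2%, 42.9% and 40.9% in CD4NIK. The Psmb8 shares of the 3 groups were apart, and the Psmb9 shares touched, CD4IKK1 replicate 3 lying just above the lowest CD4cre library. Psmb10 made up 21.4% to 34.7% of Psmb10 plus Psmb7 over all libraries, with the groups overlapping. Psmb7 counts are uncertain, since the gene shares 2817 exon bases (46.8% of its own) with Nek6 on the other strand. As length-scaled ratios, Psmb8 to Psmb5 was 0.531 ± 0.219 (SD, n = 3), 0.0932 ± 0.0965 (SD, n = 5) and 3.21 ± 0.636 (SD, n = 3) in CD4cre, CD4IKK1 and CD4NIK. Psmb9 to Psmb6 was 0.0794 ± 0.0216, 0.0211 ± 0.0211 and 0.619 ± 0.181, and Psmb10 to Psmb7 was 0.352 ± 0.0851, 0.382 ± 0.0956 and 0.326 ± 0.0577 in the same groups. The absolute shares depend on the transcript length used, which is the same in every library.

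**Figure D4:**
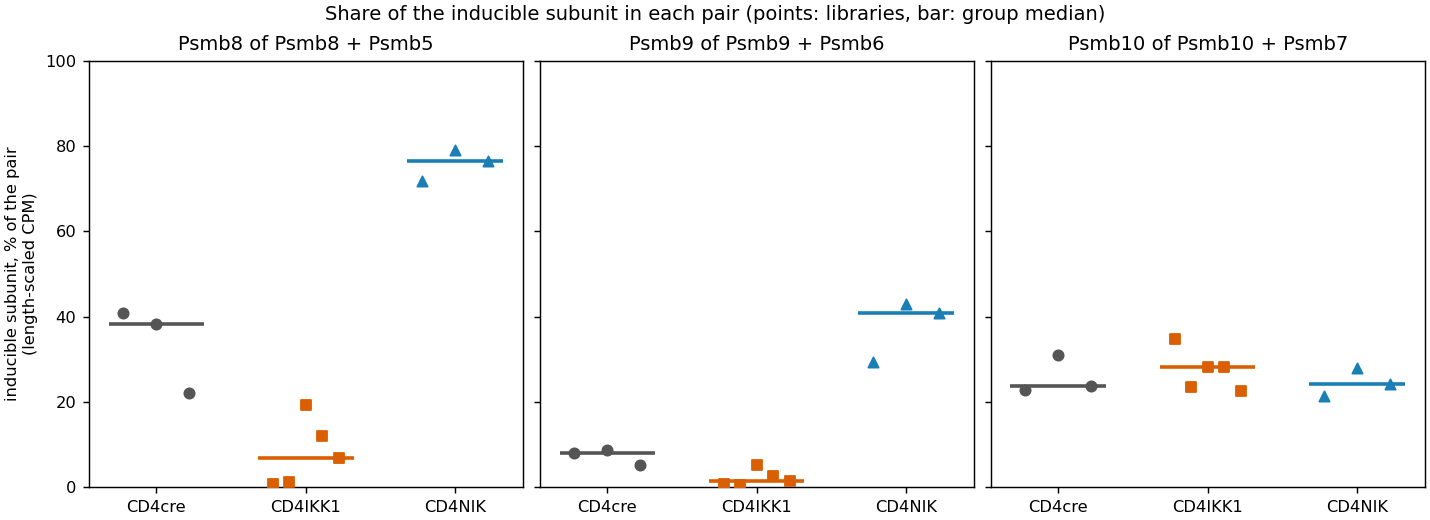
Share of the inducible subunit in each inducible and constitutive pair, in percent of length-scaled CPM (vertical axis, from 0), with points for libraries and bars for group medians. The median Psmb8 share is 38.2% in CD4cre, 6.79% in CD4IKK1 and 76.6% in CD4NIK, and the Psmb10 shares overlap.

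For the other proteasome genes, the counts past the test are set beside the share of all genes. Of 10 further subunits of the 20S core that could be tested, 1 was higher in CD4NIK than in CD4cre and 1 lower in CD4IKK1 than in CD4NIK, and both were Psma1, a ring subunit, at 1.13 (SE 0.21, edgeR FDR 0.0132) and −1.28 (SE 0.18, FDR 0.00025), beside the 10.4% and 18.5% of all genes called in those directions. Among 18 subunits of the 19S cap, which recognises ubiquitin and unfolds substrates, 3 were lower in CD4IKK1 than in CD4NIK and none higher, and 1, Psmc3, was higher in CD4NIK than in CD4cre at 1.57 (SE 0.24, edgeR FDR 0.0066). The 3 were the ATPase Psmc3 at −3.77 (SE 1.16, FDR 0.0246; 1.16 with the Pan T covariate), the non-ATPase subunit Psmd3 at −2.45 (SE 0.61, FDR 0.0064) and Psmd13, named after its values were seen, while the ATPase Psmc5 was 0.60 higher (SE 0.11, FDR 0.00089) without reaching 2-fold and Psmc1 gave 0.49 (SE 0.49). Of the other 20S subunits, Psma4 gave −1.31 (SE 0.78), Psma7 0.28 (SE 0.12) and Psmb4 0.34 (SE 0.12) there. The list medians in CD4IKK1 against CD4NIK were 0.00 for the other 20S subunits, −0.46 for the 19S cap and −0.44 for 8 other activators, inhibitors and assembly chaperones, of which none passed. In that last list the extremes were Psmg1 at −1.12 (SE 0.96; 0.48 with the Pan T covariate), Psmf1 at −0.93 (SE 0.21), Psmg4 at 0.55 (SE 0.23) and Psme4 at 1.75 (SE 1.43).

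The counts of the lists below stand beside 18.5% of all genes called lower in CD4IKK1 than in CD4NIK and 10.4% called higher in CD4NIK than in CD4cre. Of 9 genes tested for the class I heavy chains and B2m, 9 were lower in CD4IKK1 than in CD4NIK (median −4.19) and 8 higher in CD4NIK than in CD4cre (median 1.75). B2m, the invariant light chain, differed by −4.92 (SE 0.46, edgeR FDR 8e-05) and 3.16 (SE 0.49, FDR 0.0073), the latter turning to −0.26 with the Pan T covariate. Among the heavy chains, H2-Q6 gave −4.49 (0.078 with that covariate), H2-T22 −3.34 and H2-Q4 −3.16 in CD4IKK1 against CD4NIK. Heavy chain genes are near copies of one another, so counts of single ones are uncertain. Of 7 endoplasmic reticulum chaperones of class I assembly, Tapbpl, Pdia3, Calr, Hspa5 and Uggt1 were lower in CD4IKK1 than in CD4NIK (median −2.01), and the same genes but Uggt1 higher in CD4NIK than in CD4cre (median 1.58), the last 3 being named after their values were seen. Tapbpl, which is related to tapasin, gave −3.50 (SE 0.35, edgeR FDR 5.4e-05), and Pdia3 gave −4.06 (SE 0.98) but had only 0 to 60 counts in any library. Calnexin (Canx), which holds new heavy chains, gave −0.07 (SE 0.13) and Ganab −0.56 (SE 0.21; 0.0497 with the Pan T covariate), neither past the threshold. Of 6 other peptidases of antigen processing, 1 was lower in CD4IKK1 than in CD4NIK, Lap3 with −4.48 (SE 1.68) and 0 to 51 counts, and none was higher in CD4NIK than in CD4cre. Blmh gave −0.95 (SE 0.57), Thop1 0.81 (SE 0.27) and Npepps 0.92 (SE 0.38) in CD4IKK1 against CD4NIK, below 2-fold.

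Transcription factors with a known place at these genes were lower in CD4IKK1 than in CD4NIK for 10 of 16 (median −2.55) and higher in CD4NIK than in CD4cre for 7 of 16 (median 1.55). Irf1, the interferon-induced factor at many class I promoters, gave −4.40 (SE 0.82, edgeR FDR 0.0016) between CD4IKK1 and CD4NIK, and Creb1, of the enhanceosome that recruits Nlrc5, gave −4.55 (SE 0.54, FDR 0.0001). At the other end of that list, Rfxap gave −0.08 (SE 0.14) and Nfyc 0.60 (SE 0.53). The shares of all genes beside these counts and those that follow are again 18.5% and 10.4%. Of the interferon ligand, receptors and kinases, 6 of 8 were lower in CD4IKK1 than in CD4NIK (median −2.22) and 5 of 7 higher in CD4NIK than in CD4cre (median 1.58), namely Ifng, Ifngr1, Ifnar1, Ifnar2 and Jak1, of which the last 3 were named after their values were seen. Ifngr2, the partner chain of Ifngr1, went the other way without reaching 2-fold, at 0.73 (SE 0.14, edgeR FDR 0.0011) in CD4IKK1 against CD4NIK and −0.65 (SE 0.18, FDR 0.0381) in CD4NIK against CD4cre. Ifng, the interferon-γ gene, differed by −5.20 (SE 1.28, FDR 0.0095) and 2.15 (SE 0.43, FDR 0.0165), with 0 counts in CD4IKK1 replicate 1 and 15140 to 15896 in the CD4NIK libraries. With the Pan T covariate it turned to 1.18 in CD4IKK1 against CD4NIK. Jak2, a kinase of the interferon-γ receptor, gave 0.23 there (SE 1.92), with 0 to 281 counts and a sign that changed in several alternatives, and Ifngr1 gave −4.12 (SE 0.60, edgeR FDR 0.00046). In CD4IKK1 against CD4cre no gene of any of these lists passed by edgeR.

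**Figure D5:**
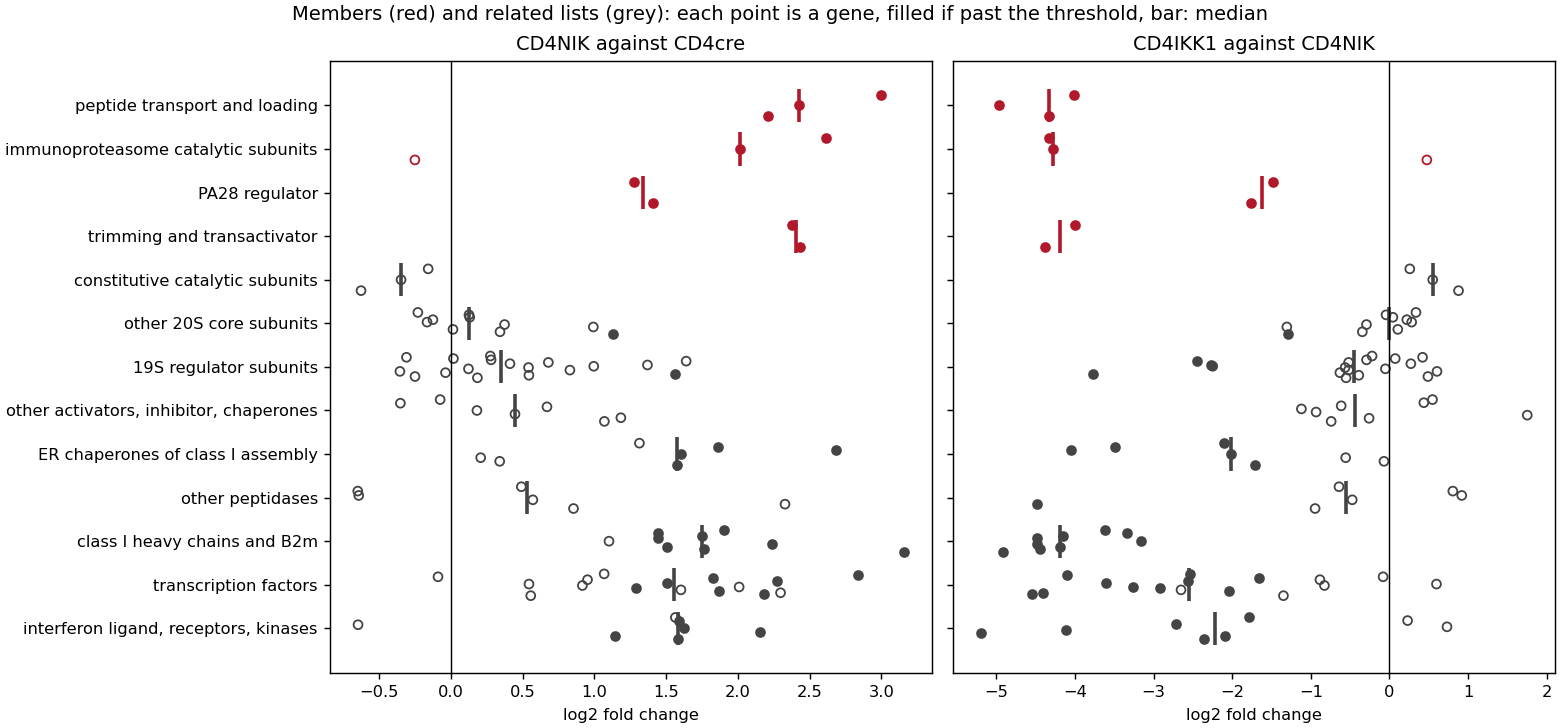
Log2 fold changes (horizontal axes) of the members, in red by role, and of the related lists, in grey, for CD4NIK against CD4cre (left) and CD4IKK1 against CD4NIK (right); each point is a gene, filled where it passed FDR 0.05 and 2-fold, and bars are medians. On the right, the constitutive catalytic subunits have a median of 0.55 and the class I heavy chains with B2m one of −4.19.

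Across the 11 libraries the members resembled each other to different degrees. Pearson's r between a member's log2 CPM and the mean of the other 9 was highest for Psmb9 (0.986), Tap2 (0.959), Psmb8 (0.937) and Tapbp (0.931), lay between 0.831 and 0.905 for Tap1, Nlrc5, Psme2, Psme1 and Erap1, and was −0.625 for Psmb10. Among 10289 genes with a mean of at least 5 CPM, those with the pattern most like the members' mean were Nedd9 (0.993), H2-Q10 (0.992), Plaat3 (0.989), Mndal (0.987) and Myl12a (0.987), followed by Ccnd3, Rnaset2a, Slamf7 and Ucp2 (0.983). These correlations rest on 11 libraries that fall into 3 genotypes and share the gradient in T cell markers, and are descriptions only.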

How the data were processed

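Estimated counts per gene, which the authors deposited as 1 table of 11 libraries, came from reads trimmed with Trimmomatic and quantified with kallisto. The labels' processing notes name mm10 and the methods GRCm39; the kallisto version, annotation and strand setting are not given in the sources used here. RNA of small numbers of sorted cells was amplified before sequencing. The members and all gene lists were chosen with earlier results of these data known. The text names all members, the 2 highest and 2 lowest log2 fold changes of each other list in CD4IKK1 against CD4NIK, the targeted genes, Irf1 and Ifng, and genes most like the members' mean; 1 gene that this rule names is not reported here, and genes added after their values were seen are named as such.

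Estimated counts were rounded to whole numbers, filtered with filterByExpr, scaled by TMM and fitted with edgeR 4.0.16 (robust quasi-likelihood test, R 4.3.3), on the libraries compared for each comparison with CD4cre and on all 11 libraries for CD4IKK1 against CD4NIK. The threshold was a Benjamini-Hochberg FDR of 0.05 and a 2-fold change. DESeq2 1.42.0, other scalings and filters, a replicate block, a Pan T covariate and left-out libraries were alternatives. The fits were also run on simulated counts with 200 changed genes. Those counts lacked the differences in T cell RNA seen between these libraries, so nothing about the present data is read from that run. Library totals were 15751632 to 25737046, so that 3 counts stood for 0.117 to 0.191 CPM. No pair of libraries was identical. The replicates are mice, each with 1 library. Motifs were searched in RefSeq promoters, and lengths came from the GENCODE M39 canonical transcripts.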

Additional observations from a re-analysis of the deposited data

Results flagged for a closer look

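Of 10 sets of 5 CD4IKK1 libraries, 1 per member, 1 held a library far from the others: Erap1 at 0.314 CPM in CD4IKK1 replicate 2, with a gap to its nearest neighbour of 0.724 of the whole range, above the 0.71 allowed. Chance alone sets apart about 1 in 20 such groups. Groups of 3 were not examined in this way.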

How the results depend on the processing

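In CD4IKK1 against CD4cre, where no gene passed, DESeq2 called 542 genes (2 members), RLE and upper-quartile factors 1 each, a 1-count filter 48, all 11 libraries fitted together 129, and leaving out CD4IKK1 replicates 1 and 2 together 36 (1 member); leaving out any 1 library gave 0 to 23. In CD4NIK against CD4cre, leaving out 1 library gave 674 to 3468 genes beside 2649 and 7 to 9 members, Psme1, with or without Tap1, being lost without CD4cre replicate 2 or 3 or CD4NIK replicate 2 or 3. Fitting all 11 libraries left 5 members, and a 1-count filter left 8. In CD4IKK1 against CD4NIK, 9 members passed in each fit without 1 library. With the Pan T covariate, 0, 0 and 726 genes and 0, 0 and 3 members passed in CD4IKK1 against CD4cre, CD4NIK against CD4cre and CD4IKK1 against CD4NIK, with member medians of −0.35, 0.69 and −1.39. It turned the sign of Nlrc5 (0.99 in CD4IKK1 against CD4cre, 1.22 in CD4IKK1 against CD4NIK), Psme1 (−0.35), B2m (−0.26) and Map3k14 (−1.68) in CD4NIK against CD4cre, Chuk (0.071) in CD4IKK1 against CD4cre, and Psmc3 (1.16), Ifng (1.18), Psmg1 (0.48), Ganab (0.0497), H2-Q6 (0.078) and Jak2 (−2.05) in CD4IKK1 against CD4NIK; the cause was not tested. Leaving out 1 library moved Chuk in CD4IKK1 against CD4cre between −0.29 and 0.31, the latter without CD4cre replicate 2. In CD4IKK1 against CD4NIK, Canx and Rfxap, both near 0, turned to 0.18 and 0.17 with upper-quartile factors and 0.0372 and 0.0289 with library size alone, and leaving out 1 library gave −0.21 to 0.052 for Rfxap and −0.63 to 2.69 for Jak2, the latter at −0.22 without CD4IKK1 replicates 1 and 2 together.

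Replicate numbers did not pair the libraries (r from −0.089 to 0.077 over 9 same-numbered pairs). A replicate block, under which the calls in CD4NIK against CD4cre split into 190 lower and 995 higher, gave 3 genes, 0 members and a member median of −2.64 in CD4IKK1 against CD4cre, 1185 genes, 9 members and a median of 2.39 in CD4NIK against CD4cre, and 9 members with a median of −4.79 in CD4IKK1 against CD4NIK, where Canx turned to 0.033 and Jak2 to −1.94. Under that block, CD4IKK1 replicates 4 and 5, numbers that no other group has, added nothing to the comparison of genotypes. The block values for CD4IKK1 thus rest on its replicates 1, 2 and 3. Other scalings moved the split of calls. In CD4NIK against CD4cre, 1063 lower and 1586 higher became 1717 and 1398 with upper-quartile factors and 1438 and 1382 with library size alone, the median of all genes moving from −0.02 to −0.16 and −0.15. In CD4IKK1 against CD4NIK, 3068 lower and 2444 higher became 2575 and 3213 (median 0.30) and 2805 and 2747 (median 0.16), from a median of 0.06. Member levels moved by less than the spread between libraries with RLE factors and with library size alone, though RLE factors closed the narrow Psmb8 gap between CD4IKK1 and CD4cre. The length-scaled ratios were varied only by a prior count of 2, which can hardly move ratios of such counts. Other transcript lengths were not tried, so the stability of the ratios was not tested. Over all alternatives, 479 member fold changes kept their direction and side of the threshold, 25 lost the call, 3 gained it and 3 turned sign. Depth limits Nlrc5 and Erap1 in CD4IKK1, where single libraries held 1 and 6 counts.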
